A study of Saccharomyces cerevisiae with 27 samples.

Results

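A set of 10 iron genes of budding yeast was followed across 4 strains: AFT1 (YGL071W), TIS11 (YLR136C), CTH1 (YDR151C), FET3 (YMR058W), FTR1 (YER145C), FIT2 (YOR382W), FIT3 (YOR383C), ARN1 (YHL040C), SIT1 (YEL065W) and FTH1 (YBR207W). They were chosen by name, as genes whose systematic name in the gene column of the RNA and DRIP tables matched a fixed list of an iron regulator, its uptake genes and the mRNA decay factors TIS11 and CTH1. All 10 were found, among 5297 genes with RNA values and 5298 with DRIP values, and all 10 passed the filter on low values (above 0 in at least 2 libraries).

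The study concerns a pair of yeast sirtuins, the histone deacetylases Hst3 and Hst4. It asks how they affect transcripts, RNA-DNA hybrids and DNA breaks, and how that relates to RNA decay by the nuclear exosome subunit Rrp6. Every strain was an anchor-away strain of log-phase Saccharomyces cerevisiae, in which a protein fused to FRB leaves the nucleus once rapamycin is present, and every culture, WT included, had received rapamycin for 3 h in rich medium (YPD) at 30 °C. WT carried the anchor-away background with no FRB fusion named in the labels. The strain hst34 carried hst4-delta and HST3-FRB, rrp6 carried RRP6-FRB, and hst34rrp6 carried hst4-delta, HST3-FRB and RRP6-FRB. Hst4 was thus absent throughout growth in hst34 and hst34rrp6, while Hst3 and Rrp6 were removed from the nucleus only during the rapamycin step. All 4 strains had RNA-seq, with 2 libraries per group in each assay. For WT and hst34 there was also Break-seq, as well as DRIP-seq on DNA that had or had not been digested with RNase H. The labels do not say that a group's libraries are from separate cultures, and p-values here describe only spread between libraries, which may be technical. For RNA, the test used (limma) took each gene's spread wholly from a trend over all genes of like signal (prior degrees of freedom infinite). RNA standard errors and p-values thus do not reflect the scatter of that gene's own libraries. For DRIP, the gene's own spread and the trend were both weighed (prior degrees of freedom 4.34, residual 4).

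Iron-starved yeast switches on a set of uptake genes, the iron regulon, through the transcription factor Aft1. The cell surface oxidase Fet3 and permease Ftr1 import free iron, the Fit mannoproteins hold iron-bound siderophores in the cell wall, and Arn1 and Sit1 carry those siderophores inside. The same regulon includes TIS11, also called CTH2, whose protein binds AU-rich elements in mRNAs of iron-using proteins and speeds their decay, a task it shares with its paralog Cth1. TIS11 transcripts are also known as substrates of the nuclear exosome, because extended forms of the message are trimmed or degraded in the nucleus.

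HST4 RNA matched the labels of the deletion, at 92.5 and 93.3 per kb in WT, 91.5 and 100.3 in rrp6 against 9.69 and 0.726 in hst34 and 3.34 and 0 in hst34rrp6. HST3 and RRP6 were depleted as proteins, so the labels do not state a change in their RNA. RRP6 RNA was still lower in the strains with RRP6-FRB, at 353 and 415 per kb in rrp6 and 347 and 423 in hst34rrp6. It was 666 and 741 in WT and 674 and 430 in hst34, and the reason was not tested. HST3 RNA was 237 and 321 in WT and 318 and 330 in hst34, with overlapping libraries. RNA libraries held 5487526 to 10183415 recovered reads in genes, and the members had between 51 (FIT2) and 8446 (FET3) reads in a library. RNA signal is given throughout as deposited, scaled to the Schizosaccharomyces pombe cells added at harvest and divided by the length of the gene's interval in kb.

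In WT the members covered most of the range of expression. FET3 led with 3548 and 3170 per kb in libraries 1 and 2, between the 92 and 93.4 percentiles of all genes. FTR1 followed with 1593 and 1791, then FTH1 with 534 and 635, CTH1 with 361 and 383, FIT3 with 417 and 304, ARN1 with 271 and 278, SIT1 with 306 and 223, AFT1 with 171 and 184, FIT2 with 102.7 and 100.1 and TIS11 with 46.4 and 58.2. CTH1 and FIT3 overlapped, and so did ARN1 and SIT1, while the other neighbours in this order did not. TIS11 was the lowest of the 10 in WT and in hst34, at the 5.04 to 5.89 percentile of all genes. In both strains depleted of Rrp6 the order differed, with TIS11 above FIT2 and CTH1 above FTH1 among the changes.

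**Figure D1:**
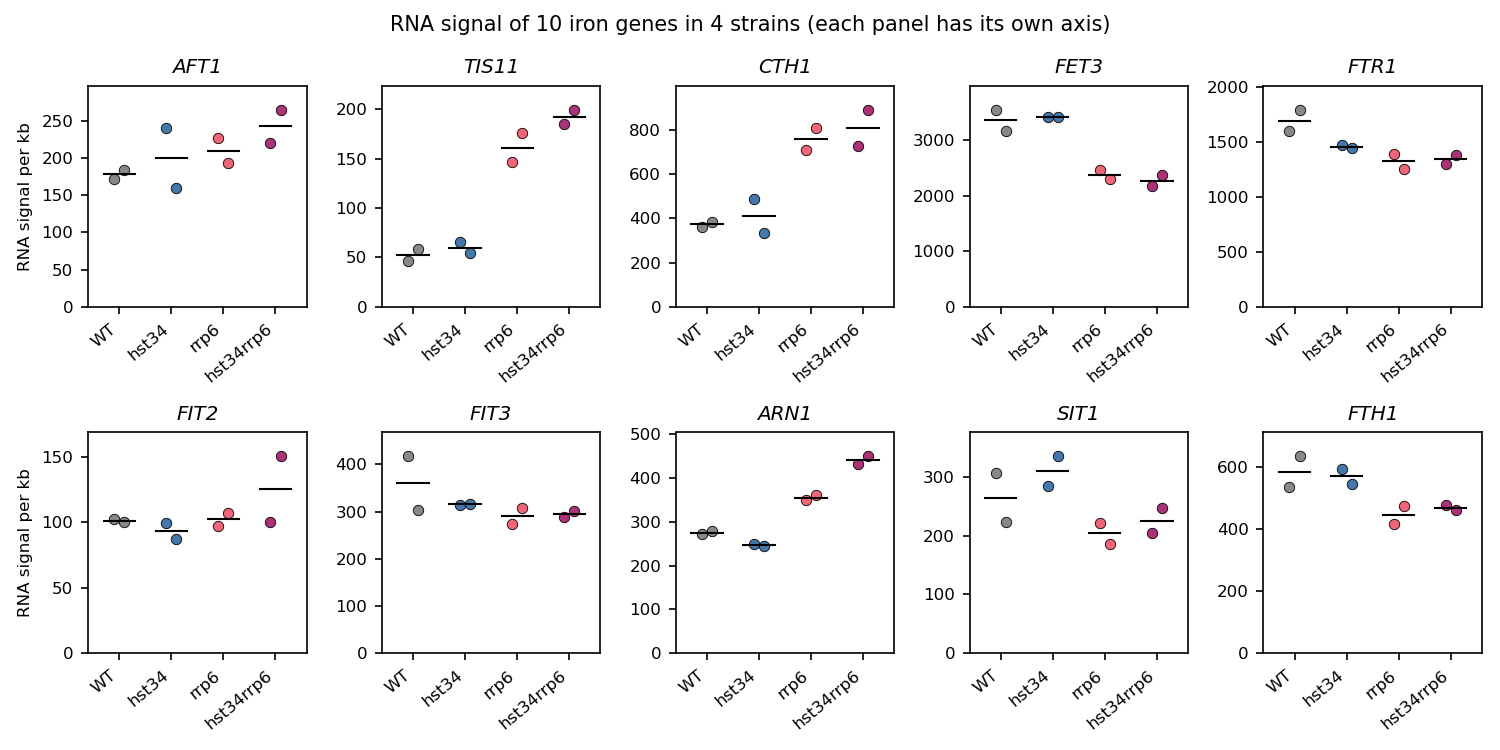
RNA signal per kb of each member (vertical axis from 0, its own scale in each panel) in WT, hst34, rrp6 and hst34rrp6. Points are single libraries and lines are means of 2, and only TIS11, CTH1 and ARN1 have both Rrp6-depleted strains above all 4 libraries of WT and hst34.

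The decay factor genes TIS11 and CTH1 were the members that rose in rrp6 against WT. RNA was measured in bulk, so a change in the share of cells with a transcript and a change in its level per cell cannot be told apart. TIS11 RNA was 46.4 and 58.2 per kb in WT, 65.7 and 54.2 in hst34, against 146 and 176 in rrp6, then 185 and 200 in hst34rrp6. Every library with Rrp6 depleted was above every library without the depletion. The mean of rrp6 was 3.08 times that of WT (2.52 to 3.79 over pairs of libraries), and that of hst34rrp6 was 3.21 times that of hst34 (2.82 to 3.69). On the log2(value + 58.8) scale used for the tests, which understates the change of a gene as low as TIS11, the rise was 0.98 ± 0.17 (SE, n = 2 against 2) in rrp6 against WT (limma over all genes, adjusted p = 2.58e-07). It was 1.08 ± 0.17 in hst34rrp6 against hst34 (adjusted p = 9.83e-09) and 1.18 ± 0.17 in hst34rrp6 against WT (adjusted p = 2.11e-10). TIS11 thereby moved from the 5.04 and 5.53 percentile of genes in WT to 21.9 and 23.7 in rrp6.

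CTH1 RNA was 361 and 383 per kb in WT, 486 and 334 in hst34, and 708 and 809 in rrp6, then 727 and 891 in hst34rrp6. These strains did not overlap either, with the mean of rrp6 at 2.04 times that of WT (1.85 to 2.24 over pairs of libraries) and that of hst34rrp6 at 1.97 times that of hst34 (1.5 to 2.67). The rise of CTH1 over WT in rrp6 was 0.92 ± 0.22 (limma, adjusted p = 0.000607). It rose by 0.90 ± 0.22 in hst34rrp6 against hst34 (adjusted p = 0.000919) and by 1.00 ± 0.22 in hst34rrp6 against WT (adjusted p = 0.000127). The first of these lost its call without library 2 of rrp6 (0.83, adjusted p = 0.0962) and the second without library 2 of hst34rrp6 (0.77, adjusted p = 0.13). The comparisons of rrp6 with WT and of hst34rrp6 with hst34 share no library, whereas both comparisons with WT share the WT libraries.

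Against all genes, 2 of 10 members rose and 0 fell in rrp6 against WT, while over all 5294 genes 4.53% were called higher by limma and 6.63% lower. In hst34rrp6 against hst34, 3 of 10 rose and 1 fell, beside 13.5% of genes higher and 3.38% lower. In hst34rrp6 against WT, 3 of 10 rose and 0 fell, beside 10.2% higher and 5.7% lower. The median log2 fold change of the 10 members was −0.12, 0.08 and 0.01 in these comparisons, against medians of −0.00, 0.17 and 0.11 over all genes. By size of change in rrp6 against WT, TIS11 and CTH1 stood at ranks 163 and 195 of 5294 genes. The counts over 10 members are too small to set the group apart from genes at large.

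**Figure D2:**
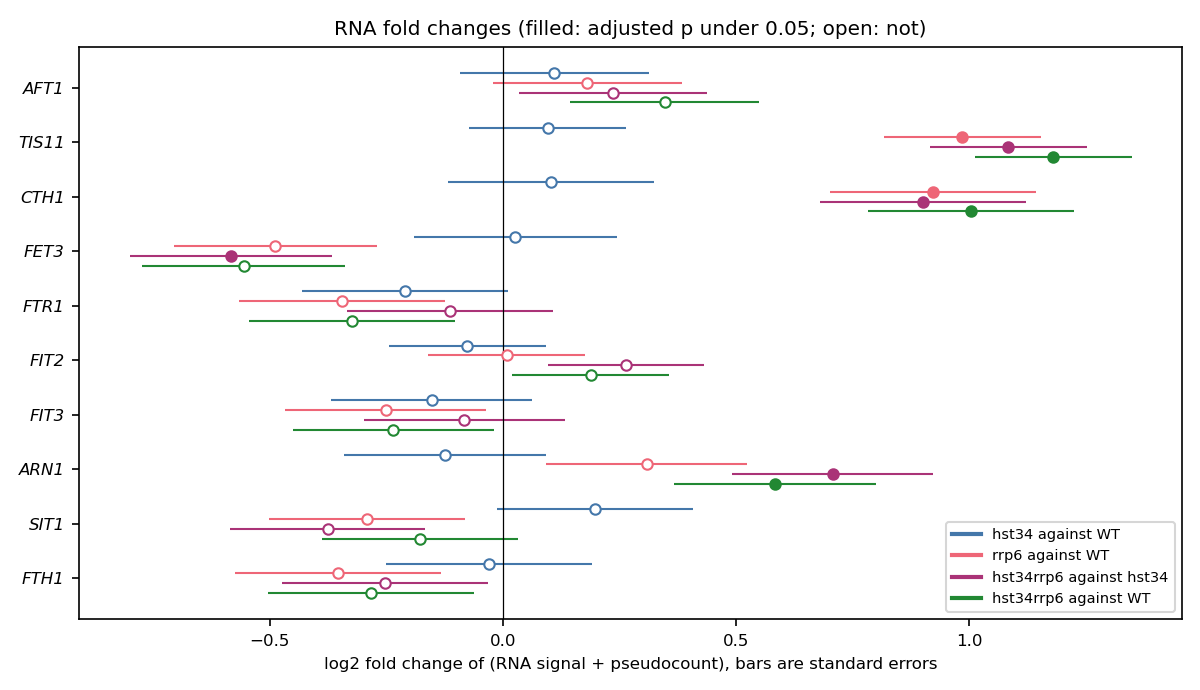
Log2 fold change of RNA signal plus pseudocount (horizontal axis) for each member in 4 comparisons, with standard errors from limma as bars and n = 2 libraries per group. Filled points passed an adjusted p of 0.05, and TIS11 and CTH1 are filled in each comparison of a Rrp6-depleted strain with one that was not.

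The interval over which TIS11 reads were counted was unusual among the members. It runs from 414581 to 416757 on the minus strand of chromosome XII (sacCer3, as in the deposited table) and spans 2176 bp, of which the open reading frame takes 858 bp. The interval extends 1220 bp past the stop codon, and 1156 bp of it (53.1%) also belong to the interval of SLX4 (YLR135W), a gene for a scaffold of DNA repair nucleases that is transcribed from the opposite strand. No source used here says whether reads were counted by strand. Reads of TIS11, of extended TIS11 transcripts and of SLX4 within this stretch cannot be told apart. SLX4 RNA was 75.5 and 72.6 per kb in WT, with 99.6 and 74.3 in hst34, 63.3 and 94.7 in rrp6, then 104 and 117 in hst34rrp6, with overlapping libraries of WT and rrp6. It passed no test, at 0.04 ± 0.16 in rrp6 against WT (limma, adjusted p = 0.929), 0.22 ± 0.16 in hst34rrp6 against hst34 (adjusted p = 0.356) and 0.35 ± 0.16 in hst34rrp6 against WT (adjusted p = 0.121). In recovered reads, TIS11 had 101 and 72 in WT and 277 and 291 in rrp6, while SLX4 had 192 and 105 in WT and 140 and 183 in rrp6. CTH1 (chromosome IV, 763960 to 765328, minus strand) has no such partner, since no other interval overlaps its 1368 bp.

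**Figure D3:**
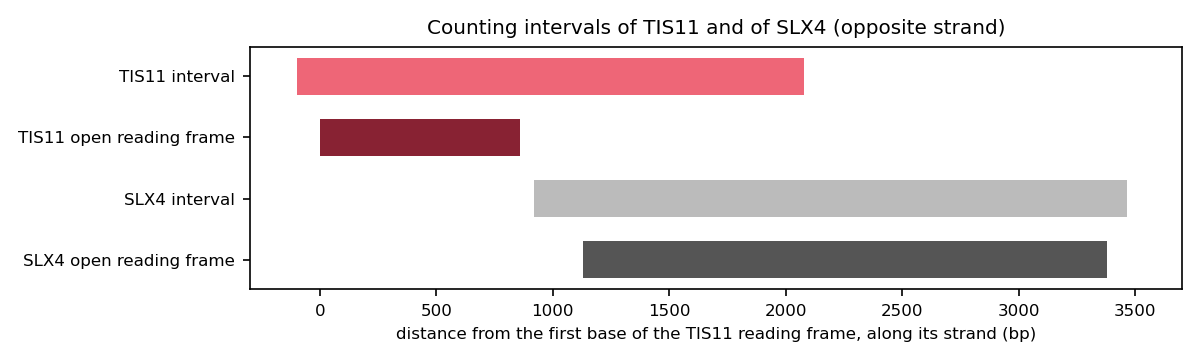
Counting intervals and open reading frames of TIS11 and of SLX4, drawn to scale along the strand of TIS11 (horizontal axis, bp from the first base of its reading frame). The TIS11 interval runs 1220 bp past its reading frame and shares 1156 bp with that of SLX4.

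AFT1, which encodes the iron-sensing activator itself (chromosome VII, 371547 to 374243, plus strand, overlapping RPB9 by 108 bp), did not pass any RNA test. Its RNA was 171 and 184 per kb in WT, with 240 and 159 in hst34, 226 and 193 in rrp6, then 220 and 265 in hst34rrp6. Both rrp6 and hst34rrp6 lay above WT, and the libraries of hst34 spanned those of WT and rrp6. The fold changes were 0.18 ± 0.20 in rrp6 against WT (limma, adjusted p = 0.703) and 0.35 ± 0.20 in hst34rrp6 against WT (adjusted p = 0.257).

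The plasma membrane pair FET3 and FTR1 lay lower, not higher, with Rrp6 depleted. FET3 (chromosome XIII, 388769 to 390865, plus strand), the multicopper oxidase, had 3548 and 3170 per kb in WT, 3419 and 3417 in hst34, against 2459 and 2294 in rrp6, then 2165 and 2365 in hst34rrp6. All 4 Rrp6-depleted libraries were below the other 4. FET3 fell by 0.58 ± 0.22 in hst34rrp6 against hst34 (limma, adjusted p = 0.0449), with a ratio of means of 0.663. It did not pass in rrp6 against WT (−0.49 ± 0.22, adjusted p = 0.147) or in hst34rrp6 against WT (−0.56 ± 0.22, adjusted p = 0.0614). FTR1 (chromosome V, 460365 to 461773, minus strand), the permease, had 1593 and 1791 per kb in WT, with 1466 and 1439 in hst34, 1389 and 1251 in rrp6, then 1296 and 1381 in hst34rrp6. Each of the other 3 strains lay below WT, with −0.34 ± 0.22 in rrp6 against WT (adjusted p = 0.39) and no call on the deposited scale. FTR1 passed as lower in hst34rrp6 against WT with libraries centred (−0.45, adjusted p = 0.0156), edgeR after TMM (−0.45, adjusted p = 0.0136) and DESeq2 (−0.46, adjusted p = 0.00626), and in hst34rrp6 against hst34 with DESeq2 (−0.35, adjusted p = 0.045).

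edgeR after TMM and DESeq2 on recovered reads called FET3 lower in rrp6 against WT, hst34rrp6 against WT and hst34rrp6 against hst34. Over all alternatives its fold change ran from −0.567 to −0.407, from −0.7 to −0.475 and from −0.825 to −0.521 in these comparisons. In limma on the deposited scale FET3 lay near the threshold. Its calls moved there when 1 library was left out, while its fold changes moved little. Against hst34, its fold change in hst34rrp6 stayed at −0.58 without library 1 or 2 of WT (adjusted p = 0.0641 and 0.0635) or of rrp6 (adjusted p = 0.111 and 0.11), and the call was lost. It was −0.52 and −0.65 without library 1 or 2 of hst34rrp6 (adjusted p = 0.275 and 0.262), again with the call lost. In rrp6 against WT, FET3 passed at −0.49 without library 1 or 2 of hst34 (adjusted p = 0.0153 and 0.016), and in hst34rrp6 against WT it passed at −0.56 in both cases (adjusted p = 0.00342 and 0.00362). With each library centred on its median, FET3 fell in all 3 of these comparisons, by 0.51 (adjusted p = 0.0175), 0.81 (adjusted p = 0.00106) and 0.68 (adjusted p = 0.00297) in rrp6 against WT, hst34rrp6 against hst34 and hst34rrp6 against WT. Under that setting 2 of 10 members rose and 3 fell (FET3, FTR1 and FTH1) in rrp6 against WT, beside 12.6% of genes higher and 20.7% lower. In hst34rrp6 against WT, 3 rose (TIS11, CTH1 and ARN1) and 3 fell (FET3, FTR1 and FTH1), beside 15.2% higher and 23.6% lower. In hst34rrp6 against hst34, 3 rose and 3 fell (FET3, SIT1 and FTH1), beside 14.4% higher and 24.7% lower. Centring takes out what the spike-in measures. It moved the median of all genes in hst34rrp6 against hst34 from 0.17 to −0.06, and that in hst34rrp6 against WT from 0.11 to −0.02.

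FIT2 and FIT3, the cell wall mannoproteins, are neighbours on chromosome XV (1059219 to 1060115, plus strand, and 1060239 to 1061111, minus strand) that converge on a gap of 124 bp. FIT2 RNA was 102.7 and 100.1 per kb in WT, with 99.5 and 87.1 in hst34, 97.5 and 107.3 in rrp6, then 100.2 and 150.7 in hst34rrp6. Only library 2 of hst34rrp6 stood out, and no test passed (0.01 ± 0.17 in rrp6 against WT, limma, adjusted p = 0.988). FIT3 RNA was 417 and 304 per kb in WT, with 315 and 316 in hst34, 274 and 308 in rrp6, then 288 and 302 in hst34rrp6. Its fold changes against WT lay between −0.25 and −0.15 with errors of 0.22, and library 1 of WT was the highest of the 8.

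The siderophore transporter genes ARN1 and SIT1 differed from each other. ARN1 (chromosome VIII, 18885 to 21549, minus strand) had 271 and 278 per kb in WT, with 249 and 245 in hst34, 349 and 360 in rrp6, then 432 and 450 in hst34rrp6, so that the 4 strains did not overlap. It rose by 0.58 ± 0.22 in hst34rrp6 against WT (limma, adjusted p = 0.0457) and by 0.71 ± 0.22 in hst34rrp6 against hst34 (adjusted p = 0.0112), but not in rrp6 against WT (0.31 ± 0.22, adjusted p = 0.451) or in hst34rrp6 against rrp6 (0.27 ± 0.22, adjusted p = 1). The call against WT was lost, at close to the same fold change, without any one library of WT (0.56 and 0.60, adjusted p = 0.232 and 0.196), rrp6 (0.58 in both, adjusted p = 0.105 and 0.107) or hst34rrp6 (0.61 and 0.56, adjusted p = 0.188 and 0.326). The call against hst34 was lost without library 1 or 2 of hst34rrp6 (0.73 and 0.69, adjusted p = 0.0845 and 0.181). On recovered reads ARN1 also passed in rrp6 against WT, with DESeq2 (0.37, adjusted p = 0.0447) and with edgeR after TMM (0.37, adjusted p = 0.0354). SIT1 (chromosome V, 27625 to 29601, plus strand, overlapping AVT2 by 100 bp) had 306 and 223 per kb in WT, with 285 and 335 in hst34, 222 and 186 in rrp6, then 205 and 247 in hst34rrp6. Its WT libraries overlapped those of hst34 and hst34rrp6, and it passed no test on the deposited scale (−0.29 ± 0.21 in rrp6 against WT, adjusted p = 0.462). Its fold change was −0.38 ± 0.21 in hst34rrp6 against hst34 (adjusted p = 0.211), and it passed there with libraries centred (−0.60, adjusted p = 0.0301) and with edgeR after TMM (−0.71, adjusted p = 0.0183).

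FTH1 (chromosome II, 635064 to 636664, plus strand), a permease of the vacuolar membrane that releases stored iron, had 534 and 635 per kb in WT, with 594 and 547 in hst34, 415 and 474 in rrp6, then 476 and 461 in hst34rrp6. Rrp6-depleted libraries were below the others, and the fold change in rrp6 against WT was −0.35 ± 0.22 (limma, adjusted p = 0.374). It was −0.28 ± 0.22 in hst34rrp6 against WT (adjusted p = 0.432) and −0.25 ± 0.22 in hst34rrp6 against hst34 (adjusted p = 0.461). FTH1 passed as lower in all 3 comparisons with libraries centred, with edgeR after TMM and with DESeq2. Its interval overlaps that of DUR12 on the other strand by 84 bp, and DUR12 fell by 0.92 ± 0.22 in hst34 against WT (adjusted p = 0.00343) and by 0.87 ± 0.22 in rrp6 against WT (adjusted p = 0.00135). The part of these reads in the FTH1 value was not tested.

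Libraries were separated for most members where 1 of the strains was depleted of Rrp6, as they were for many genes. In rrp6 against WT both libraries of 4 members (AFT1, TIS11, CTH1 and ARN1) lay above both of WT, as did those of 28.5% of genes, and both libraries of 4 others (FET3, FTR1, SIT1 and FTH1) lay below, as did those of 28.4%. SIT1 was below by a narrow margin, with 222.2 in rrp6 against 223.3 in WT. In hst34rrp6 against WT 4 members lay above (39.3% of genes) and 4 below (19.9%), and in hst34rrp6 against hst34 4 lay above (36.8%) and 5 below (11.5%). In hst34 against WT 0 members lay above (7.04% of genes) and 3 below (FTR1, FIT2 and ARN1, 18.2%), and libraries of the other 7 overlapped. In hst34rrp6 against rrp6 2 lay above (TIS11 and ARN1, 31.8%) and 0 below (7.23%), and libraries of the other 8 overlapped. With 2 libraries against 2, an exact two-sided permutation test of one gene cannot go under p = 0.333.

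Without Rrp6 depletion, no member passed a test for loss of Hst4 with depletion of Hst3. In hst34 against WT limma called 0 members, beside 2% of all genes. No member reached an unadjusted p of 0.05, the fold changes ran from −0.21 (FTR1) to 0.20 (SIT1), and errors were 0.17 to 0.22. edgeR with TMM and DESeq2 on recovered reads also called 0. Where both strains lacked nuclear Rrp6 (hst34rrp6 against rrp6), limma called 0 of 10 beside 1.04% of genes, again with 0 members at an unadjusted p under 0.05, and TIS11 and CTH1 differed by 0.20 ± 0.17 and 0.08 ± 0.22. The difference between these comparisons, (hst34rrp6 minus rrp6) minus (hst34 minus WT), passed for 0 of 10 members and 1.19% of genes, with 0 members at an unadjusted p under 0.05. It was 0.10 ± 0.24 for TIS11 and −0.02 ± 0.31 for CTH1, so at this precision no difference in the response to Rrp6 depletion between the 2 backgrounds was detectable for either gene.

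Over the 8 RNA libraries the members fell into opposite patterns, described here with no test because the libraries share strains and scaling. TIS11 followed CTH1 (Pearson r = 0.971 over 8 libraries, each centred on its median) and ARN1 (r = 0.892), and ran against FET3 (r = −0.835) and FTH1 (r = −0.826). FIT3 went with SIT1 (r = 0.844) and FET3 (r = 0.841). Among the 2572 genes with a log2 range of at least 0.5, the genes most like TIS11 were PBI1 (r = 0.999) and SPO23 (r = 0.994), those most like CTH1 were SVL3 (0.993) and HRP1 (0.991), and those most like FIT3 were ISC1 (0.96) and PPQ1 (0.934). AFT1, with a range of 0.37, had no such close match, the nearest being PGS1 (0.853) and PEP7 (0.841).

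The wider iron regulon moved in both directions. In rrp6 against WT, where 4.53% of all genes were called higher and 6.63% lower, 3 rose and 0 fell of 18 measured genes of 20 listed. These were FRE2 (0.88 ± 0.17, adjusted p = 1.11e-05), which encodes a ferric reductase, FIT1 (0.52 ± 0.14, adjusted p = 0.00378), the third cell wall mannoprotein gene, and FRE5 (0.28 ± 0.10, adjusted p = 0.0444), a putative reductase gene that was nearly silent at 5.06 and 3.34 per kb in WT and reached 17.1 and 18.8 in rrp6. FIT1 RNA was 39.2 and 29.5 per kb in WT, with 50.2 and 43.6 in hst34, 71.7 and 77.2 in rrp6, then 87.4 and 99.1 in hst34rrp6, with both Rrp6-depleted strains above the other 2. In hst34rrp6 against hst34, 4 rose and 1 fell, beside 13.5% of all genes higher and 3.38% lower. The reductase gene FRE1 fell (−0.77 ± 0.22, adjusted p = 0.00633), and FRE2 (0.96 ± 0.17, adjusted p = 1.24e-06), the tRNA wybutosine synthesis gene TYW1 (0.73 ± 0.22) and the heme oxygenase gene HMX1 (0.60 ± 0.22) were the largest rises. The list median was −0.16 and 0.10 in these comparisons, against −0.00 and 0.17 over all genes. With libraries centred, 2 rose and 4 fell in rrp6 against WT, beside 12.6% of all genes higher and 20.7% lower. Under the same setting 3 rose and 6 fell in hst34rrp6 against hst34, beside 14.4% higher and 24.7% lower. Leaving out 1 library gave 1 to 3 rises and 0 to 3 falls in rrp6 against WT, with 1 rise without library 2 of WT or either library of rrp6 and 3 falls without either library of hst34. Without library 1 or 2 of hst34, 645 and 644 of all genes were lower, against 351 with every library. For hst34rrp6 against hst34, leaving out 1 library gave 1 to 8 rises and 0 to 1 falls, with 8 rises without library 1 of hst34 and 1 without library 2 of hst34rrp6. Over all genes the number higher moved the same way, to 1906 and 185, against 716 with every library.

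Among mRNAs described as targets of the Tis11 and Cth1 proteins, falls outnumbered rises in the 3 comparisons with Rrp6 depleted in 1 strain. In rrp6 against WT, where 6.63% of all genes were called lower and 4.53% higher, 5 fell and 0 rose of 14 measured. These were the succinate dehydrogenase gene SDH2 (−0.92 ± 0.22, adjusted p = 0.000612), the aconitase gene ACO1 (−0.89 ± 0.22, adjusted p = 0.000833), the ferrochelatase gene HEM15 (−0.75 ± 0.22, adjusted p = 0.00902), WTM1 (−0.68 ± 0.22, adjusted p = 0.0191), whose protein anchors ribonucleotide reductase subunits in the nucleus, and the ribonucleotide reductase gene RNR2 (−0.65 ± 0.21, adjusted p = 0.0205). ACO1 RNA was 3254 and 3537 per kb in WT, 5136 and 4118 in hst34, against 1795 and 1820 in rrp6, then 2443 and 2765 in hst34rrp6. In hst34rrp6 against hst34, 4 fell (ACO1, SDH2, RNR2 and WTM1) and the lipoate synthase gene LIP5 rose (0.63 ± 0.21, adjusted p = 0.0264), beside 3.38% of all genes lower and 13.5% higher. In hst34rrp6 against WT, 2 fell (WTM1 and HEM15) and the biotin synthase gene BIO2 rose (0.64 ± 0.22, adjusted p = 0.0263), beside 5.7% lower and 10.2% higher. The list medians were −0.38, −0.26 and −0.26, against −0.00, 0.17 and 0.11 over all genes. With libraries centred, 8 fell and 1 rose in rrp6 against WT, beside 20.7% of all genes lower and 12.6% higher. Leaving out 1 library at a time gave 0 to 7 falls and 0 rises in that comparison. It gave 0 falls without library 2 of WT or library 1 of rrp6, where 131 and 117 of all genes were lower, against 351 with every library. For hst34rrp6 against hst34, 5 rose and 2 fell without library 1 of hst34, where 1906 of all genes were higher and 133 lower. Without library 2 of hst34, 0 rose and 7 fell, where 396 of all genes were higher and 467 lower. Without either library of rrp6, 0 rose and 2 fell, and without either library of hst34rrp6, 0 rose or fell. With every library, 716 of all genes were higher and 179 lower, so these counts moved with those over all genes when a library of hst34 was left out. In hst34rrp6 against WT, 0 fell without library 2 of WT or library 1 of hst34rrp6, where 109 and 95 of all genes were lower, against 302 with every library. Tis11 and Cth1 protein were not measured, and the part of these factors in the falls was not tested.

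The other iron lists had few calls in rrp6 against WT, where 4.53% of all genes were higher and 6.63% lower. Of 12 measured regulators of iron sensing and metal transport 1 fell, GRX4 (−1.10 ± 0.22, adjusted p = 1.71e-05), a glutaredoxin that takes part in turning Aft1 off. Of 19 Fe-S cluster assembly genes the frataxin gene YFH1 rose (0.72 ± 0.22, adjusted p = 0.0135) and DRE2 of the cytosolic machinery fell (−0.73 ± 0.22, adjusted p = 0.0127). Neither was called without any one library of WT or rrp6, and 1 rose and 3 fell without either library of hst34. With centring, edgeR after TMM or DESeq2, 1 rose and 4 fell, and centring called 12.6% of all genes higher and 20.7% lower. Of 8 heme synthesis genes HEM4 rose (2.43 ± 0.22, adjusted p = 2.44e-25) from 250.0 and 314 per kb in WT to 1701 and 1854 in rrp6, and HEM15 fell. In hst34rrp6 against hst34 these lists had GRX4 and the copper transporter gene CTR1 lower (−0.74 and −0.62, each ± 0.22), YFH1 higher (0.78 ± 0.22) and HEM4 higher (2.60 ± 0.22), beside 3.38% of all genes lower and 13.5% higher. In hst34 against WT limma called 0 genes of all 5 lists, beside 2% of all genes.

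**Figure D4:**
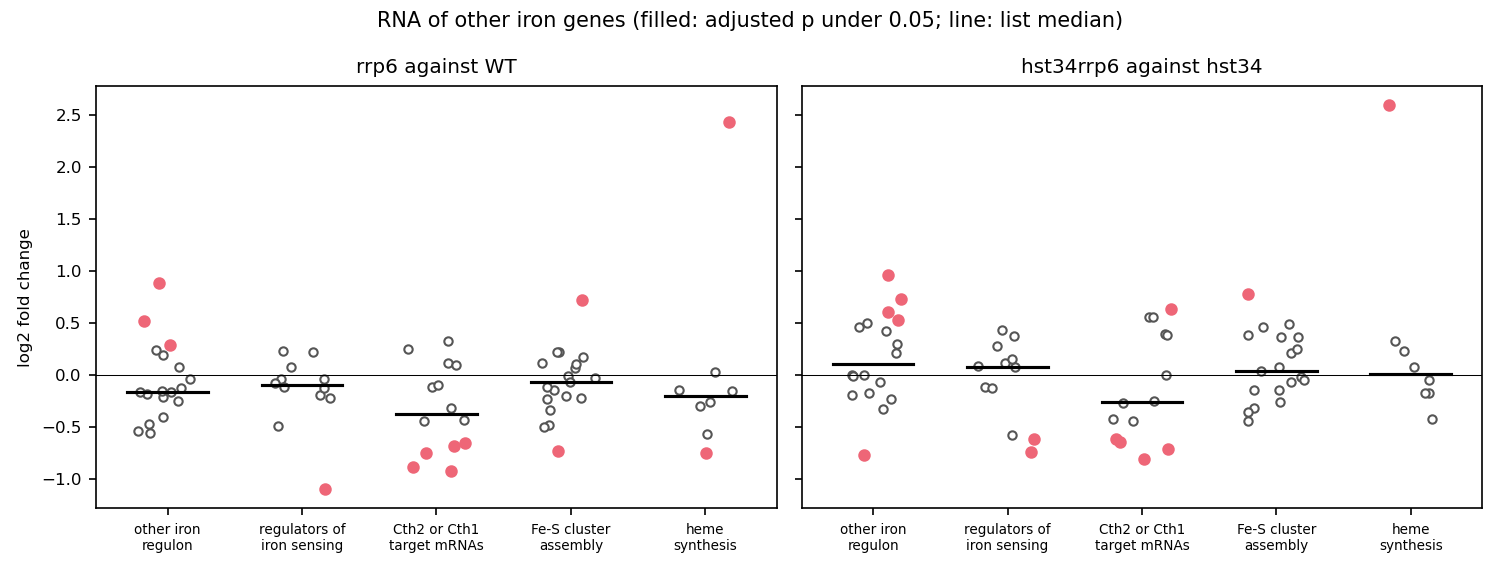
Log2 fold change of RNA signal (vertical axis) for each gene of the 5 other iron lists, in rrp6 against WT (left) and in hst34rrp6 against hst34 (right). Filled points passed limma at an adjusted p of 0.05 and lines are list medians, which for the Tis11 and Cth1 target mRNAs stand at −0.38 and −0.26.

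DRIP-seq, which sequences DNA held in RNA-DNA hybrids after pull-down with the S9.6 antibody, was read per gene interval with no division by length. Both WT libraries with the number 2 stood apart from the rest. Library 2 of WT held 83303106 reads in genes, against 935412 to 2951246 in the other 7. Its log2 signal had r = 0.991 over genes with library 2 of WT after RNase H and r = 0.802 with library 1 of WT. FTR1 had a DRIP signal of 31.6 in library 1 of WT and 1.52 in library 2, FET3 had 108 and 8.70, FIT3 had 28.6 and 4.62, FTH1 had 47.6 and 7.78, and FIT2 had 27.2 and 5.46. SIT1 went the other way with 174 and 418, while AFT1 (200 and 202) and TIS11 (133 and 134) had close values in both. Every DRIP comparison with WT rests on these libraries.

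**Figure D5:**
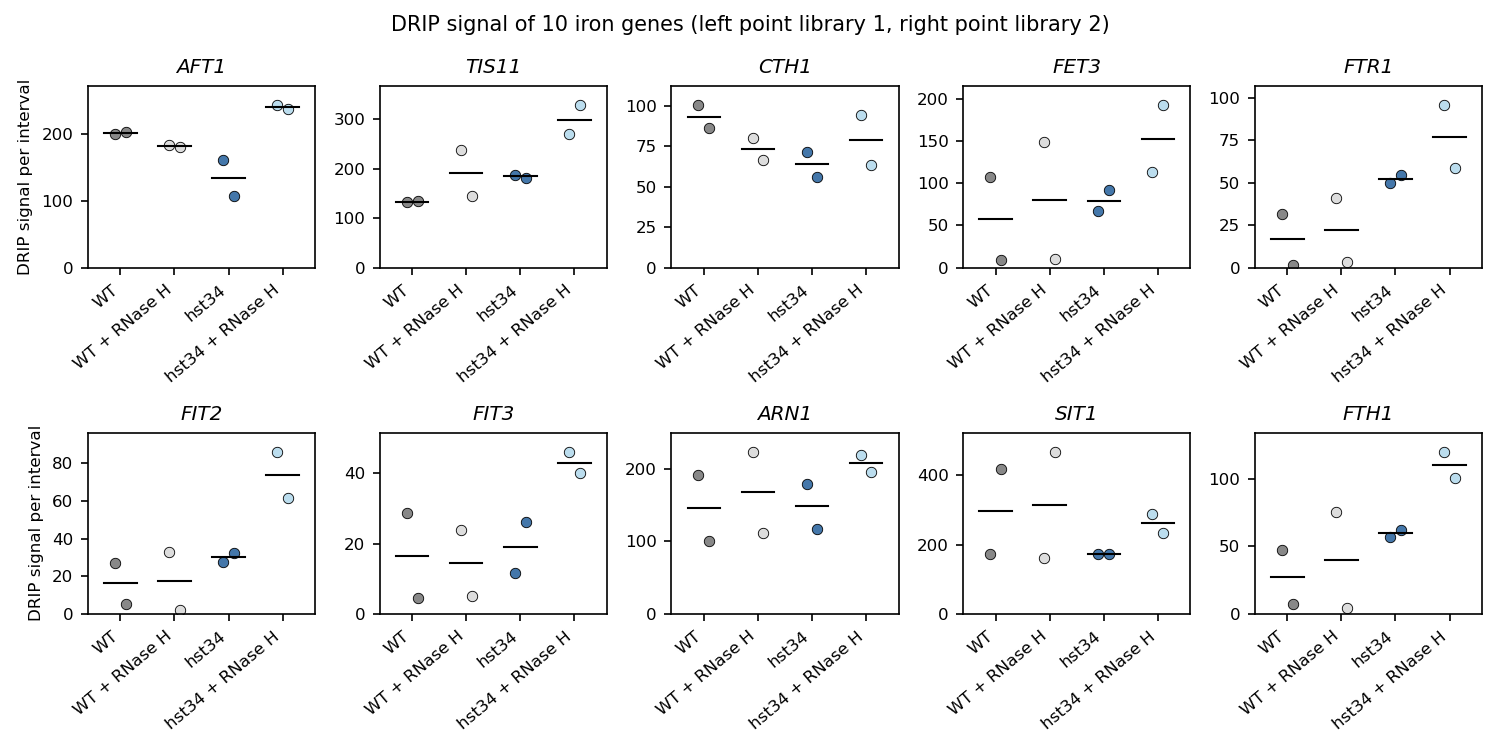
DRIP signal per gene interval (vertical axis from 0, its own scale in each panel) in WT and hst34, each without and with RNase H, with library 1 left and library 2 right in each pair and lines at means of 2. For FTR1 the libraries of WT lie at 31.6 and 1.52, and AFT1 and TIS11 have close WT values.

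RNase H digests the RNA strand of hybrids. The DRIP signal of the members in hst34, as scaled, was not lower after it. AFT1 signal was 160 and 106 in hst34 and 242 and 236 after RNase H, against 200 and 202 in WT and 183 and 180 after RNase H in WT. TIS11 signal was 188 and 182 in hst34 and 271 and 328 after RNase H, and in WT it was 133 and 134 before and 239 and 144 after. Both treated libraries of hst34 were above both untreated ones in 9 of 10 members, all but CTH1, as in 49.5% of all genes. CTH1 signal was 71.5 and 56.2 in hst34 and 94.4 and 63.2 after RNase H. All 10 fold changes lay above 0, as did those of 72.2% of all genes. The median of the members was 0.71 on the log2(value + 12.5) scale against 0.34 over all genes, and none passed in limma, which called 0% of genes. The smallest adjusted p of a member was that of AFT1 (0.81 ± 0.30, adjusted p = 0.467), and 1 member and 541 of 5298 genes had an unadjusted p under 0.05. DESeq2 on recovered reads called 53 genes, 3 higher and 50 lower and 0 of them members, and gave an adjusted p for 3654 genes and not for every member. edgeR called 0. The size of the rise depended on the scaling, whose basis no source used here gives. Summed over genes, the signal lay between 902159 and 1134350 in every DRIP library, while recovered reads ran from 935412 to 83303106. Values with totals this close cannot show whether all genes lost signal together after RNase H, only how a gene stood against the others. The median of all genes was 0.12 with libraries centred and 0.04 with edgeR after TMM, where AFT1 was at 0.59 and 0.50, TIS11 at 0.43 and 0.35, and CTH1 at 0.02 and −0.05.

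Without both WT libraries numbered 2, a setting added after seeing the data that leaves 1 library in each WT group and takes the spread from the hst34 groups alone, AFT1 (0.73 ± 0.28, adjusted p = 0.0458) and FIT2 (0.74 ± 0.29, adjusted p = 0.0485) passed in hst34 with RNase H against without, beside 15.9% of genes called higher. With hst34 and its RNase H libraries fitted alone, AFT1 passed (0.81 ± 0.31, adjusted p = 0.0428), again beside 15.9% of genes. FIT2 signal was 27.7 and 32.3 in hst34 and 85.9 and 61.4 after RNase H.

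In hst34 against WT without RNase H, limma called 0 of 10 members and 0% of genes, with 0 members and 140 genes at an unadjusted p under 0.05. Fold changes ran from −0.61 ± 0.52 (SIT1) to 1.38 ± 0.86 (FTR1). Both libraries of hst34 lay above both of WT for 4 members (TIS11, FTR1, FIT2 and FTH1), as in 10.7% of genes. Both lay below for 3 members (AFT1, CTH1 and SIT1), as in 23.7% of genes. Without both WT libraries numbered 2, the value of FTR1 was 0.39 ± 0.36 and that of TIS11 was 0.39 ± 0.33, while FET3 turned from 0.85 to −0.33, FIT3 from 0.21 to −0.26 and ARN1 from 0.06 to −0.33, none of them called. RNase H in WT gave 0 calls (0% of genes, 0 genes at an unadjusted p under 0.05), hst34 against WT after RNase H gave 0 calls (0% of genes, 0 members and 212 genes at an unadjusted p under 0.05), and the difference in the RNase H effect between hst34 and WT gave 0 calls (0% of genes, 0 members and 92 genes at an unadjusted p under 0.05). edgeR called 0 genes in each, and DESeq2 called 0 members in each and 30 genes in the strain comparison after RNase H. WT libraries of the same number were alike with and without RNase H (r = 0.949 for number 1 and 0.991 for number 2). The untreated WT libraries were less alike (r = 0.802). The main fit did not pair them, so for RNase H in WT the gap between numbers 1 and 2 counted as error. The 0 calls there do not show that RNase H had no effect in WT. Without both WT libraries numbered 2, each lone WT library is assumed to vary like those of hst34, so calls under that setting are not weighed here. There the median fold change of all genes was −0.16 in hst34 against WT and 0.14 for RNase H in WT. It was 0.02 in hst34 against WT after RNase H and 0.17 for the difference in the RNase H effect. Errors of single members ran from 0.30 to 1.07 within these comparisons between groups. Differences well above 1 error were not called either, such as 1.71 ± 0.79 for FIT2 in hst34 against WT after RNase H (limma, adjusted p = 0.774). The lack of calls therefore sets no upper limit on the differences.

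No member overlapped a Break-seq peak. The deposited list holds 239 peaks called once for hst34 against WT, and 10.23% of the 5298 gene intervals overlap one of them, against 0 of 10 members. The closest was CTH1, 1423 bp from a peak on chromosome IV (766751 to 768000) whose deposited signal was 185 and 161 in hst34 and 127 and 89.0 in WT. FIT2 and FIT3 lay 10719 and 11739 bp from a peak at 1046251 to 1048500 on chromosome XV, TIS11 lay 90331 bp from its nearest, and the remaining 6 were 58314 to 272865 bp away. The median distance was 63510 bp for the members and 37750 bp for all genes.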

How the data were processed

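RNA-seq, DRIP-seq and Break-seq of 20 libraries were used, and 7 NET-seq samples were not analysed here. The deposited RNA values are a signal per gene, scaled by the authors to a Schizosaccharomyces pombe spike-in (1 part to 6) and to interval length, per the labels. The submitters' processing notes name sacCer3, Bowtie2, TopHat2, SAMtools and HTSeq 0.9.1. The deposited DRIP signal per gene and the signal of the Break-seq peaks are scaled in a way not given in the sources used here, and these notes name Bowtie2 and, for DRIP, bedtools. Values were whole multiples of 1 read (100% within 0.01), so reads were recovered from both gene tables.

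Tests were run with limma 3.58.1 (trend) in R 4.3.3 on log2(signal + pseudocount), with 58.8 for RNA and 12.5 for DRIP, over genes above 0 in at least 2 libraries. Each table's 8 libraries were fitted together, and p-values were adjusted over all genes (Benjamini-Hochberg, threshold 0.05). The planned count test was not the main test for DRIP because the values were scaled. The fit was tested on simulated data with 200 changed genes. edgeR 4.0.16 and DESeq2 1.42.0 on recovered reads, other pseudocounts and filters, centring, a replicate block, the groups alone and leaving out libraries were alternatives. Members, lists and tests were chosen with earlier results of these data known. All 10 members are named, and of the other lists the called genes (the 3 largest beyond 5). The genes most like TIS11, CTH1, FIT3 and AFT1 had the highest Pearson r over 8 libraries. Gene symbols came from the RefSeq table of assembly R64 (5286 matched).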

Additional observations from a re-analysis of the deposited data

Results flagged for a closer look

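ARN1 RNA was flagged because, as deposited, loss of Hst4 with depletion of Hst3 had opposite signs in the 2 backgrounds. Both hst34 libraries were below both WT libraries (249 and 245 per kb against 271 and 278), and both hst34rrp6 libraries were above both rrp6 libraries (432 and 450 against 349 and 360). Neither effect passed in limma (−0.12, adjusted p = 0.977, and 0.27, adjusted p = 1). The difference between them was 0.398 on the log2 scale (adjusted p = 0.981), where the median of all genes was 0.17 and 82.2% of genes were above 0. With libraries centred on their medians the hst34 libraries (−0.45 and −0.08) spanned those of WT (−0.18 and −0.30), so these 2 strains were not separated on that scale. Over 18 alternatives the fold change stayed below 0 in hst34 against WT (−0.152 to −0.0233). It stayed above 0 in hst34rrp6 against rrp6 (0.168 to 0.315), and neither was called in any of them.

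AFT1 DRIP signal was flagged because RNase H had opposite signs in the 2 strains. It was lower after RNase H in both WT libraries (183 and 180 against 200 and 202) and higher in both hst34 libraries (242 and 236 against 160 and 106). Neither effect passed in limma. The difference between them was 0.949 (adjusted p = 0.9999), where the median of all genes was 0.28 and 69.0% of genes were above 0. With libraries centred it was 0.77 (adjusted p = 0.9997), and without both WT libraries numbered 2, which leaves 1 library in each WT group, it was 0.83 (adjusted p = 0.613).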

How the results depend on the processing

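TIS11 stayed called as higher in all 17 alternatives that tested it in each of the 3 comparisons of a Rrp6-depleted strain with WT or hst34. Dropping the lowest 25% of genes left it untested. In rrp6 against WT, 2 members were called, against 1 with the lowest 25% dropped, 5 with libraries centred, 5 with edgeR after TMM, 5 with DESeq2, and 1 to 3 when leaving out 1 library. In hst34rrp6 against WT, 3 were called, against 6 with each of centring, edgeR after TMM and DESeq2, and 2 to 4 when leaving out 1 library. In hst34rrp6 against hst34, 4 were called, against 6 with each of centring, edgeR after TMM and DESeq2, 2 with the lowest 25% dropped, 2 with the groups compared alone, and 1 to 4 when leaving out 1 library. In DRIP with RNase H in hst34, 0 were called, against 1 with the groups compared alone and 2 without both WT libraries numbered 2. The cause was not tested. No called value changed sign. With centring, 667 genes were higher and 1096 lower in rrp6 against WT (240 and 351 as deposited), 803 and 1248 in hst34rrp6 against WT (541 and 302), and 760 and 1308 in hst34rrp6 against hst34 (716 and 179).

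With the replicate number as a block, 2, 2 and 3 members were called in these RNA comparisons, and 0 in every other. Deviations of same-numbered libraries had r of −0.198 to 0.114 in RNA, where they share only a number. In DRIP they moved together in every pair of groups (r of 0.123 to 0.94, highest between WT and WT after RNase H), though no label says that the numbers pair libraries. FIT2 had 51 to 92 reads and TIS11 72 to 310 per RNA library, which limits their precision.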
